A study of Homo sapiens with 6 samples.

Results

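The circadian clock genes, 10 in number, were followed through an RNA-seq comparison of HK-2 cells with and without oxidized low-density lipoprotein (OX-LDL), the form of LDL that scavenger receptors take up. They were CLOCK, ARNTL (called BMAL1 in newer naming), PER1, PER2, PER3, CRY1, CRY2, NR1D1, NR1D2 and DBP, and they were taken by name from the 58825 genes of the deposited table. Of these 10 genes, 9 were found by name and 1, PER1, by its Ensembl ID ENSG00000179094, because the table gives that row the name of an overlapping read-through transcript.

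The clock is a feedback loop of transcription. A dimer of CLOCK and ARNTL switches on the PER and CRY genes at E-boxes in their promoters, and the PER and CRY proteins then enter the nucleus and block that dimer. In a second loop the nuclear receptors NR1D1 and NR1D2 (REV-ERB alpha and beta), themselves targets of CLOCK and ARNTL, repress ARNTL at ROR elements (ROREs), where RORA and its relatives activate it, and DBP carries the rhythm on to genes with D-boxes. In the kidney tubule the clock is known to drive daily rhythms of salt and water transport.

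HK-2 cells are an established, immortalized human line from the kidney tubule epithelium. The Control group was 3 libraries of cells that the labels call untreated, with no duration, and the OX-LDL group was 3 libraries of cells treated for 48 h with OX-LDL at 25 µg/ml. All were of the same line, and the study used the comparison to look for pathways behind fibrosis and inflammation under high lipid. Its culture methods describe starvation of HK-2 cells in low-serum medium before OX-LDL, and do not mention control cells in that step. Each group was sampled at 1 time point and no clock time was given in the sources used here, so that a change in the average level of a rhythmic transcript and a shift of its phase cannot be told apart, and in bulk RNA fewer cells expressing a gene and less RNA per cell cannot be told apart either.

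Libraries held 62561347 to 76797607 estimated counts at about 4 counts per read pair, and the shallowest was OX-LDL replicate 1. The epithelial markers EPCAM, KRT8, KRT18 and CDH1 were detected in all 6 libraries, although CDH1 averaged only 0.101 FPKM (fragments per kilobase of transcript, scaled to library size), and their summed level ran from 115 to 140 FPKM in Control and from 159 to 199 FPKM in OX-LDL. The 4 kidney lineage genes summed to 53.9 to 78.4 FPKM in Control and 40.8 to 51.0 FPKM in OX-LDL, whereas LRP2 (megalin), a defining gene of the proximal tubule, had no count in any library and only 2 of 8 proximal tubule rows were detected in all 6. Of the markers of other cell types, CDH5, KDR and VWF of endothelium, PTPRC and CD3E of leukocytes, and COL1A2 and DCN of fibroblasts stayed at or under 12 counts (about 3 read pairs) in every library. The summed leukocyte list was 3.11 to 7.74 FPKM in Control and 9.16 to 14.0 FPKM in OX-LDL, and CD68, a lysosomal protein abundant in macrophages, made up nearly all of it (5.21 ± 2.39 and 10.8 ± 2.45 FPKM, adjusted p 0.0858 by edgeR, not called), with CD14 at 0.268 and 0.259 FPKM. The summed fibroblast list was 10.1 to 11.99 FPKM in Control and 8.73 to 14.1 FPKM in OX-LDL. LUM made up nearly all of it (10.2 ± 1.10 and 11.4 ± 2.90 FPKM, adjusted p 0.596 by edgeR, not called). COL1A1, at 0.573 and 0.813 FPKM, and PDGFRB, at 0.0409 and 0.0395 FPKM, were also detected in all 6 libraries. Whether these marker differences had a part in the clock gene values was not tested.

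ARNTL and CRY1 fell after OX-LDL, and they were the only members of the 10 that passed the test. ARNTL went from 4.63 ± 0.320 to 2.27 ± 0.262 FPKM (mean ± SD, n = 3 in each group here and below), and CRY1 from 19.6 ± 0.896 to 13.6 ± 0.779 FPKM. The core activator CLOCK and the most abundant PER gene, PER3, were close to level, and the remaining members had intervals that spanned 0. The test was edgeR's quasi-likelihood test on the counts with Benjamini-Hochberg adjustment over the 19510 genes that averaged 0.1 FPKM or more, a level that all 10 members reached. A gene was called at an adjusted p under 0.05.

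The promoters of the 2 genes that fell are shown here because the clock's own regulators are known to act on such sequences. They come from RefSeq (GRCh38.p14), run 5′ to 3′ from 250 bases before a transcription start to 50 bases after it, and carry in capitals any match to 4 motifs searched on both strands. The motifs were the E-box CACGTG, the noncanonical E-box CACGTT, the RORE written as TAGGTCA or TGGGTCA, and the D-box written as TTATGTAA or TTACGTAA. No matches overlapped in these windows. RefSeq lists 2 starts for ARNTL, at chr11:13276402-13276701 and chr11:13277540-13277839 on the plus strand, and 1 for CRY1, at chr12:107093500-107093799 on the minus strand.
ARNTL, first start: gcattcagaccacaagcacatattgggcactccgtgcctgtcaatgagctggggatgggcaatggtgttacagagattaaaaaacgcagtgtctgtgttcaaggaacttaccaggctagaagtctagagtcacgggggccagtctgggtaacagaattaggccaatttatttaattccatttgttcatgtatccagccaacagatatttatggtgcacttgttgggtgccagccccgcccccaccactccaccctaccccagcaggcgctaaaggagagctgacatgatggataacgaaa
ARNTL, second start: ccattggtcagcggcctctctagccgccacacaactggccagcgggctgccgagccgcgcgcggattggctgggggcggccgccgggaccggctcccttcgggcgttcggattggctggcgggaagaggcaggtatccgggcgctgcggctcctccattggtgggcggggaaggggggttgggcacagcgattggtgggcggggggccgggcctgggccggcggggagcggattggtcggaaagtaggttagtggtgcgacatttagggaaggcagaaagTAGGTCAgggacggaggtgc
CRY1: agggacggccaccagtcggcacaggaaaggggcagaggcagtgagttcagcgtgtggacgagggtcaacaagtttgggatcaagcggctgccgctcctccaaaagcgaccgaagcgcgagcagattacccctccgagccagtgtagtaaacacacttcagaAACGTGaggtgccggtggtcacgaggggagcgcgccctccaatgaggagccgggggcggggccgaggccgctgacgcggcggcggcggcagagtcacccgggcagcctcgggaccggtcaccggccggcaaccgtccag

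The first ARNTL window held none of the 4 motifs as written here, and the second held 1 match to the RORE words, TAGGTCA, at 31 bases past the start. The similar word TAGGTTA also stands in the second window, left in small letters because that form was not searched. The matches therefore do not count every possible RORE. The CRY1 window held 1 noncanonical E-box, read as AACGTG on the strand shown, at position -89. Over all 35116 promoter windows of the same length, 5.69% held a RORE, 5.34% the noncanonical E-box, 7.26% the E-box and 1.01% the D-box. Among the 10 members (15 windows), the E-box stood in the windows of 2 genes, PER1 and NR1D2, and the noncanonical E-box in those of 5, CLOCK, PER2, CRY1, CRY2 and NR1D1. A RORE was found for 4 members (CLOCK, ARNTL, CRY2 and NR1D2) and a D-box for 3 (PER2, PER3 and NR1D2), while DBP had none of these words in its window. Counted by window, as the shares over all promoters are, the E-box stood in 2 of 15 and the noncanonical E-box in 5. By the same count the RORE stood in 4 and the D-box in 3. The windows of CRY1 and its paralogue CRY2, which did not pass the test, both held the noncanonical E-box. A match is a description of the letters only.

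The 10 transcripts spanned more than an order of magnitude in level. In Control cells CRY1 stood highest, followed by NR1D2, PER3, CLOCK, ARNTL and NR1D1, and no neighbours in this part of the order overlapped between their 3 libraries. CRY2, PER1, PER2 and DBP formed the low end, at 0.993, 0.831, 0.780 and 0.734 FPKM on average, and their libraries overlapped. In OX-LDL cells CRY1, NR1D2 and PER3 kept their places, PER3 and CLOCK overlapped, and ARNTL stayed below CLOCK in every library. The lowest member, DBP, rested on 162 to 483 counts per library, or about 40.5 to 121 read pairs, and the highest, CRY1, on 4532 to 8638 counts.

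**Figure D1:**
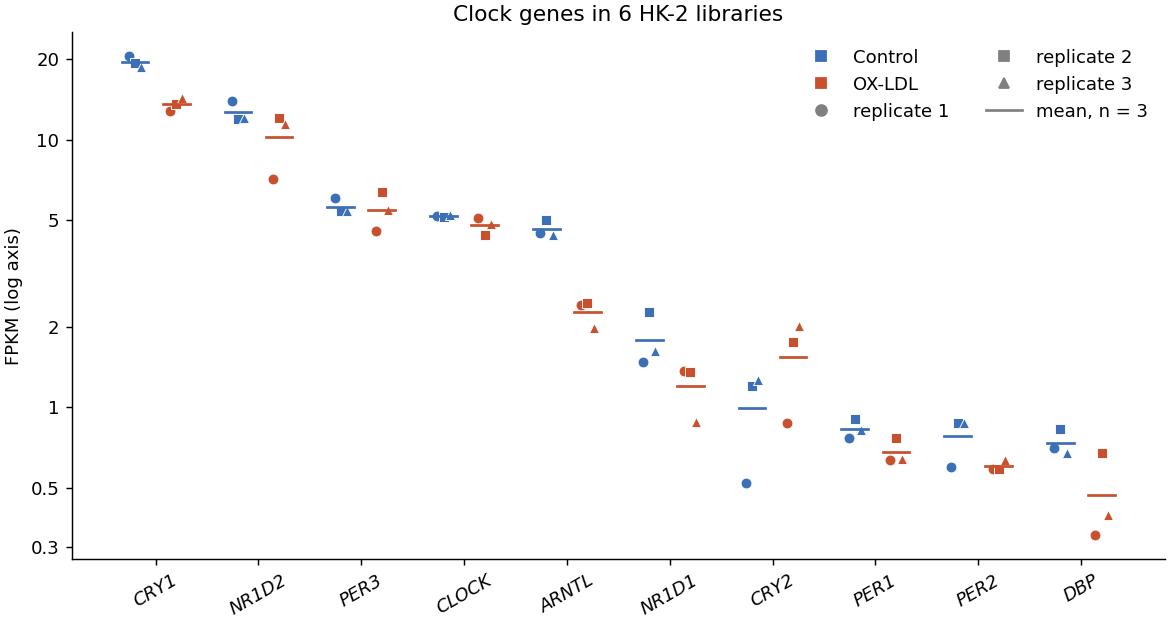
FPKM (log axis) of the 10 clock genes in each of the 6 HK-2 libraries, ordered by mean level; blue is Control, red is OX-LDL, the marker shape gives the replicate number and a line marks the mean of 3. All 3 OX-LDL libraries of ARNTL (1.97 to 2.44 FPKM) and of CRY1 (12.8 to 14.4 FPKM) sat below all 3 Control libraries (4.42 to 5.00 and 18.8 to 20.6 FPKM).

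The activators come first. ARNTL (ENSG00000133794, chr11:13276652-13387266, plus strand, GRCh38 as in the table) encodes the main partner with which CLOCK binds E-boxes. It measured 4.48, 5.00 and 4.42 FPKM in Control replicates 1 to 3 and 2.40, 2.44 and 1.97 FPKM in OX-LDL replicates 1 to 3. The groups did not overlap, and the highest OX-LDL library lay well under the lowest Control library. The log2 fold change of OX-LDL over Control was -0.99 (SE 0.11, 95% interval -1.26 to -0.72), a fold of 0.502, with an adjusted p of 0.0042 in edgeR's quasi-likelihood test. With any 1 library left out the log2 fold change stayed between -1.05 and -0.90 and the adjusted p of the same test between 0.00803 and 0.0217.

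CLOCK (ENSG00000134852, chr4:55427903-55546909, minus strand), the other partner of that dimer, did not pass the test. It measured 5.18, 5.16 and 5.24 FPKM in Control and 5.10, 4.42 and 4.86 FPKM in OX-LDL. Its Control libraries were the tightest of any member, with a coefficient of variation of 0.862%, and although the 3 OX-LDL values all lay lower, the groups overlapped once counts were scaled by library size and TMM factors (CPM). The log2 fold change was -0.08 (SE 0.08, 95% interval -0.27 to 0.10) and the adjusted p 0.520 by edgeR, and without OX-LDL replicate 2 the value was -0.03.

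The ratio of ARNTL to CLOCK did not overlap between the groups. It was 0.866, 0.970 and 0.842 in Control and 0.471, 0.553 and 0.405 in OX-LDL, as ratios of FPKM values. The difference of the means was -0.417, and the exact two-sided permutation test gave p = 0.1, the smallest that 3 against 3 libraries allow (adjusted p = 0.15 over the 6 shares and ratios compared).

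PER1, PER2 and PER3 encode the period proteins, which hold the CRY proteins in the repressor complex. None of the 3 passed the test, and PER3, whose product is the least essential to the rhythm, made up most of the transcript. PER3 (ENSG00000049246, chr1:7784320-7845177, plus strand) measured 6.05, 5.40 and 5.41 FPKM in Control and 4.55, 6.40 and 5.44 FPKM in OX-LDL, so that OX-LDL libraries held both its lowest and its highest value. Its log2 fold change was -0.01 (SE 0.14, 95% interval -0.34 to 0.32), and its sign changed with the settings, between -0.14 and 0.12. PER3 took 75.2 to 81.6% of the summed PER level in Control and 78.9 to 82.6% in OX-LDL, shares that overlapped.

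PER1 and PER2, the 2 immediate-early members of the family that respond to serum, cAMP and glucocorticoids, were low. PER1 (chr17:8140472-8156405, minus strand) measured 0.768, 0.904 and 0.821 FPKM in Control and 0.631, 0.765 and 0.641 FPKM in OX-LDL. PER2 (ENSG00000132326, chr2:238244044-238290102, minus strand) measured 0.598, 0.874 and 0.869 FPKM in Control and 0.584, 0.589 and 0.636 FPKM in OX-LDL. PER1 did not overlap between groups in FPKM but did in TMM-scaled CPM, and in PER2 Control replicate 1 lay among the OX-LDL libraries. The log2 fold changes were -0.25 (SE 0.16, 95% interval -0.62 to 0.11, adjusted p 0.329) and -0.34 (SE 0.19, 95% interval -0.79 to 0.11, adjusted p 0.289) by edgeR. The PER1 row of the table spans the read-through transcript as well as PER1, so its reads may come from either.

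CRY1 (ENSG00000008405, chr12:106991364-107093549, minus strand) encodes the strongest repressor of the CLOCK-ARNTL dimer. It measured 20.6, 19.4 and 18.8 FPKM in Control and 12.8, 13.6 and 14.4 FPKM in OX-LDL, with no overlap and coefficients of variation of 4.57% and 5.73%. Its log2 fold change was -0.49 (SE 0.08, 95% interval -0.69 to -0.30), a fold of 0.710, with an adjusted p of 0.0113 by edgeR. With 1 library left out it ranged from -0.54 to -0.45, with adjusted p from 0.023 to 0.0434.

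CRY2 (ENSG00000121671, chr11:45847118-45883247, plus strand), the paralogue of CRY1, was the only member with a higher mean in OX-LDL, but its libraries scattered. It measured 0.518, 1.20 and 1.26 FPKM in Control and 0.871, 1.75 and 2.01 FPKM in OX-LDL. Replicate 1 was the lowest library of both groups, and the coefficients of variation were 41.5% and 38.6%. The log2 fold change was 0.67 (SE 0.42, 95% interval -0.32 to 1.67, adjusted p 0.336 by edgeR), and it ranged from 0.37 without Control replicate 1 to 0.96 without OX-LDL replicate 1. With the replicate number added to the edgeR fit as a block it was 0.68, with an adjusted p of 0.0528, not called. Because CRY1 was far more abundant, the summed CRY level went from 20.1 to 21.1 FPKM in Control to 13.7 to 16.4 FPKM in OX-LDL. CRY2 made up 2.46 to 6.28% of that sum in Control and 6.36 to 12.2% in OX-LDL, and the CRY1 share was lower by 5.15 percentage points on average (a difference of -5.15, exact permutation p = 0.1, adjusted p = 0.15).

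NR1D1 and NR1D2 encode the REV-ERB repressors of ARNTL. NR1D1 (ENSG00000126368, chr17:40092793-40100589, minus strand) measured 1.47, 2.27 and 1.62 FPKM in Control and 1.36, 1.35 and 0.883 FPKM in OX-LDL. The groups did not overlap, but Control replicate 2 and OX-LDL replicate 3 stood away from the others of their group. The log2 fold change was -0.54 (SE 0.25, 95% interval -1.14 to 0.05, adjusted p 0.202 by edgeR), and it did not pass in any alternative fit, where it lay between -0.66 and -0.34. NR1D1 shares 1075 bases with THRA on the opposite strand. THRA held 1901 to 2815 counts in Control and 898 to 1572 in OX-LDL, against 340 to 534 and 211 to 323 for NR1D1, and since the sources used here do not say whether strand was used in counting, reads of one may have been counted for the other.

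NR1D2 (ENSG00000174738, chr3:23945286-23980617, plus strand) was the main REV-ERB transcript, with 84.1 to 90.5% of the pair in Control and 84.0 to 92.9% in OX-LDL. It measured 14.0, 12.01 and 12.03 FPKM in Control and 7.13, 12.1 and 11.5 FPKM in OX-LDL. OX-LDL replicate 1 stood alone at the low end, and replicates 2 and 3 lay near the lower Control libraries. Its log2 fold change was -0.27 (SE 0.20, 95% interval -0.76 to 0.21, adjusted p 0.424), and without OX-LDL replicate 1 it was -0.06.

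DBP (ENSG00000105516, chr19:48630030-48637438, minus strand), a D-box activator whose rhythm is among the widest of any clock output in the liver, was the lowest member. It measured 0.702, 0.825 and 0.674 FPKM in Control and 0.332, 0.673 and 0.395 FPKM in OX-LDL. The groups touched without overlapping in FPKM and overlapped in TMM-scaled CPM, because OX-LDL replicate 2 lay at the level of the lowest Control library. A log2 fold change of -0.61 (SE 0.29, 95% interval -1.30 to 0.07, adjusted p 0.207 by edgeR) was found, and without OX-LDL replicate 2 it was -0.97 with an adjusted p of 0.0291 in the same test. DBP shares 688 bases with SPHK2 on the opposite strand, which held 549 to 814 counts in Control and 320 to 555 in OX-LDL, against 360 to 483 and 162 to 402 for DBP.

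**Figure D2:**
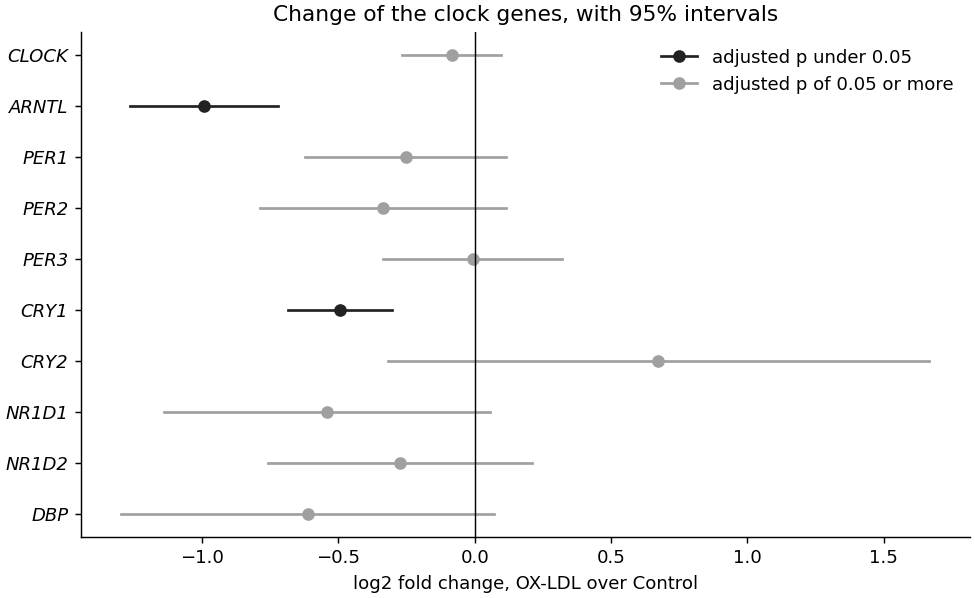
Log2 fold change of OX-LDL over Control for each clock gene (points) with its 95% interval (lines) from edgeR's quasi-likelihood fit; black marks an adjusted p under 0.05. The intervals of ARNTL (-1.26 to -0.72) and CRY1 (-0.69 to -0.30) lay below 0, and the other 8 spanned it.

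Read against all genes tested, 2 of 10 members (20%) were called, where 15.3% of the 19510 genes were called in either direction. The members were chosen with earlier results of these data known, so these shares are a description only. Both called members fell, where 7.42% of all genes were called lower and 7.91% higher. No member had a fold above 2 or below 0.5, the fold limits of the study, together with an unadjusted p under 0.05, limits that 6.36% of all genes met, and ARNTL missed the lower fold limit narrowly with its fold of 0.502. The groups did not overlap in FPKM for 6 of 10 members (CLOCK, ARNTL, PER1, CRY1, NR1D1 and DBP), all lower in OX-LDL, where 37.2% of all genes did not overlap and 20.5% lay lower. With TMM-scaled CPM only 3 members (ARNTL, CRY1 and NR1D1) did not overlap, all lower, where 36.9% of all genes did not overlap and 18.6% lay lower, so that 3 of 10 in either direction was no more than the share of all genes. The median log2 fold change was -0.30 over the members and -0.0043 over all genes. Of the 10 fold changes 9 were negative, where 9822 of the 19510 genes had a negative one. The 9 include CLOCK (-0.08) and PER3 (-0.01), and the sign of PER3 changed with the settings.

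**Figure D3:**
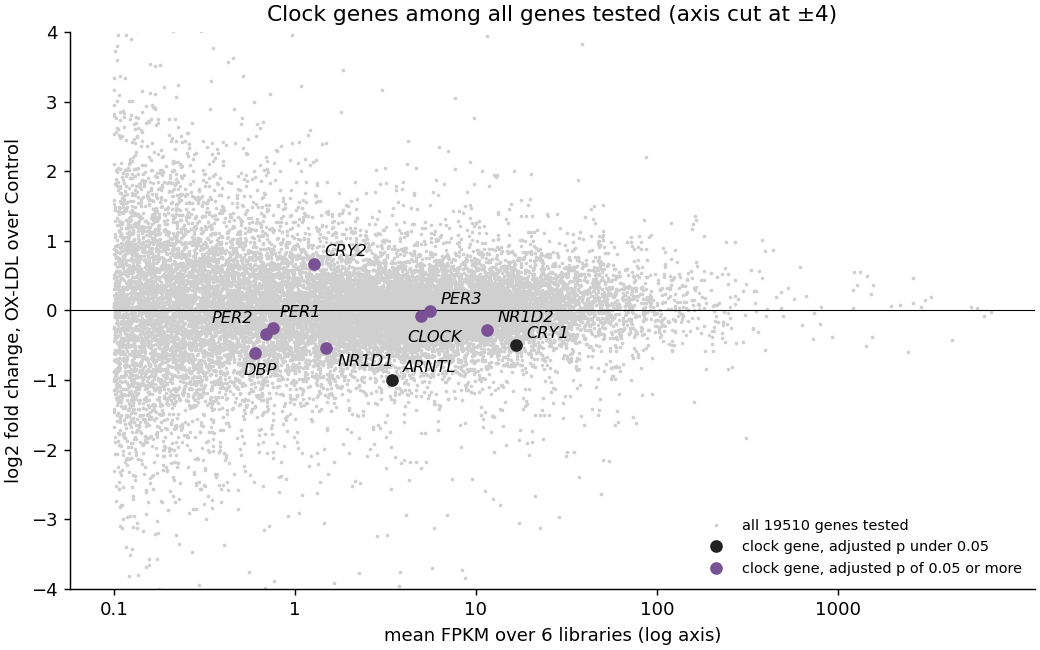
Mean FPKM over the 6 libraries (log axis) against the log2 fold change of OX-LDL over Control for all 19510 genes tested (grey) and the 10 clock genes (black, adjusted p under 0.05; purple, the rest). The members spread from DBP at 0.600 to CRY1 at 16.6 FPKM, and ARNTL, at 3.45 FPKM and a log2 fold change of -0.99, was the member farthest from 0.

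The activators and the repressors each have paralogues, and their balance was followed library by library. ARNTL2, a second partner of CLOCK, measured 7.16 to 7.87 FPKM in Control and 7.36 to 7.86 FPKM in OX-LDL (log2 fold change 0.02, SE 0.08, adjusted p 0.874 by edgeR). ARNTL therefore went from 36.3 to 41.1% of the pair's summed FPKM in Control to 20.03 to 24.9% in OX-LDL, and ARNTL2 was the more abundant in all 6 libraries. NPAS2, which can stand in for CLOCK, fell from 1.91 ± 0.188 to 1.28 ± 0.130 FPKM (log2 fold change -0.55, SE 0.12, adjusted p 0.0281). CLOCK accordingly went from 71.3 to 75.5% of the CLOCK and NPAS2 sum to 78.3 to 79.3%. For both pairs the exact permutation test on the shares gave p = 0.1 (adjusted p = 0.15), while for PER3 and NR1D2 it gave p = 0.3 and 0.8.

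**Figure D4:**
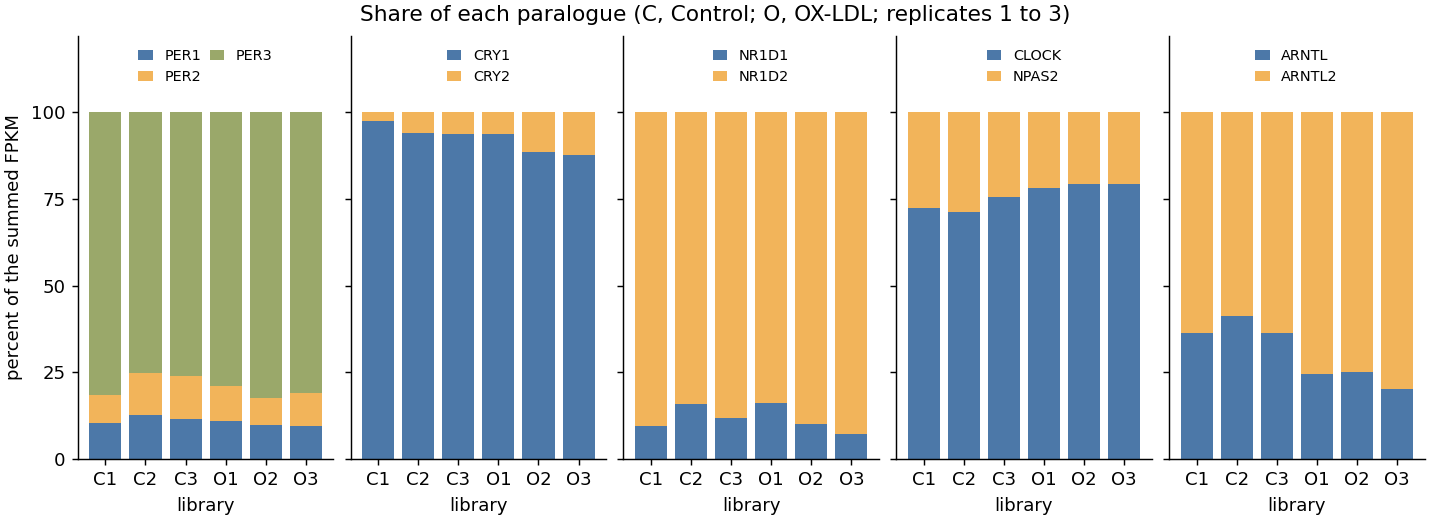
Percent of the summed FPKM taken by each gene of 5 paralogue families in each library (C, Control; O, OX-LDL; replicates 1 to 3), stacked to 100. The ARNTL part of the ARNTL and ARNTL2 sum shrank from 36.3 to 41.1% to 20.03 to 24.9%, and CRY1 kept at least 87.8% of the CRY sum in every library.

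Beyond the 10 members, 40 further genes of the pathway in 6 lists were counted, of which 38 were tested. Of these, 14 (36.8%) were called, 6 higher and 8 lower in OX-LDL, beside 15.3% of all genes, with a median log2 fold change of -0.0078. The lists were chosen with earlier results of these data known, so the shares are set side by side only as a description. The count depended on the libraries, and so did the count over all 19510 genes. Without Control replicate 1, 2 or 3 it was 7, 5 or 11, beside 1796, 1161 or 1993 of all genes. Without OX-LDL replicate 1, 2 or 3 it was 4, 14 or 3, beside 1262, 2943 or 1163 of all genes. The background share depended on level. With every library and a minimum mean of 1 FPKM, 15 of 32 further genes were called, beside 3152 of all 12259 genes. Only BHLHE41, NFIL3 and SGK1 of the 14 were called in all 6 fits that left out 1 library, and for each other called gene named here the libraries without which the call was kept or lost are given.

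Among the core partners and negative elements, 3 of 7 were called. BHLHE41 (DEC2), a repressor of E-box genes, fell from 8.59, 9.97 and 9.45 FPKM in Control to 4.19, 5.53 and 4.17 FPKM in OX-LDL (log2 fold change -0.98, SE 0.14, adjusted p 0.00738 by edgeR). Its paralogue BHLHE40 (DEC1) rose from 21.5 ± 2.58 to 29.5 ± 0.426 FPKM (log2 fold change 0.48, adjusted p 0.0218 by edgeR). With 1 library left out, this call was kept only without Control replicate 3 or OX-LDL replicate 2, with adjusted p of up to 0.0783 otherwise. Among the 6 fits that left out 1 library, the fall of NPAS2 kept its call only without Control replicate 3, with adjusted p of up to 0.0971 otherwise. TIMELESS, CIPC, CIART and ARNTL2 did not pass.

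In the ROR loop, RORB had no count in any library, and RORA, the activator at ROREs, was low. RORA measured 0.157, 0.173 and 0.0799 FPKM in Control and 0.274, 0.222 and 0.296 FPKM in OX-LDL, with no overlap, and did not pass the test (log2 fold change 0.98, SE 0.31, adjusted p 0.0824 by edgeR). RORA-AS1 on the opposite strand held 47 to 71 counts in Control and 26 to 72 in OX-LDL, against 111 to 264 and 345 to 458 for RORA. Of the REV-ERB corepressors, NCOR1 fell (log2 fold change -0.44, adjusted p 0.0242) and HDAC3, the deacetylase that NCOR1 recruits, rose (0.38, adjusted p 0.0185), so that 2 of 4 tested genes of this list were called. With 1 library left out, NCOR1 kept its call only without Control replicate 2 or OX-LDL replicate 2 (adjusted p of up to 0.0832 otherwise). HDAC3 in these fits kept it only without Control replicate 3 or OX-LDL replicate 2 (up to 0.0685).

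NFIL3 (E4BP4), the repressor that competes with DBP for D-boxes, fell, and its fold change was larger than that of any of the 10 members, a difference that was not tested. It measured 24.6, 28.8 and 28.3 FPKM in Control and 12.1, 12.8 and 11.8 FPKM in OX-LDL, with no overlap, and its log2 fold change was -1.12 (SE 0.09, 95% interval -1.33 to -0.92, adjusted p 0.00146 by edgeR). The other activators at D-boxes beside DBP did not pass: HLF had a log2 fold change of -0.98 (SE 0.34, adjusted p 0.103) and TEF of -0.13 (SE 0.18, adjusted p 0.693). The list thus had 1 of 3 genes called. NFIL3 was more abundant than DBP, HLF and TEF together in every library.

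Of 9 kinases, ubiquitin ligases and deubiquitinases that set the stability of the PER and CRY proteins, 2 were called. The kinase GSK3B fell by 0.35 on the log2 scale (SE 0.08, adjusted p 0.0264 by edgeR) and kept its call only without OX-LDL replicate 2 (adjusted p of up to 0.0962 otherwise). The casein kinases that phosphorylate PER were close to level, CSNK1D at -0.00054 (SE 0.07) and CSNK1E at 0.02 (SE 0.12). CSNK1D shares 22107 bases with SLC16A3 on the opposite strand. SLC16A3 held 3419 to 3686 counts in Control and 5936 to 7932 in OX-LDL, against 6386 to 7151 and 5756 to 7221 for CSNK1D. Since the use of strand in counting is not known, reads of either may have been counted for the other.

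Of 8 input genes, 2 were called, both known glucocorticoid targets and in opposite directions. TSC22D3 (GILZ) fell from 18.2 ± 3.13 to 10.4 ± 0.871 FPKM (log2 fold change -0.78, SE 0.14, adjusted p 0.0154 by edgeR), a call lost without OX-LDL replicate 1 or 3 (adjusted p 0.0593 and 0.0616). FKBP5 rose from 4.84 ± 0.496 to 6.61 ± 0.367 FPKM (log2 fold change 0.48, SE 0.09, adjusted p 0.0196). With 1 library left out, this call was kept only without Control replicate 3 or OX-LDL replicate 2 (adjusted p of up to 0.0768 otherwise). The glucocorticoid receptor NR3C1 itself did not pass (log2 fold change 0.35, SE 0.31, adjusted p 0.519).

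Of 7 genes known as outputs of the clock, 4 were called, 3 higher and 1 lower. SGK1, a kinase that raises sodium transport in the tubule, rose from 4.27, 3.45 and 5.08 FPKM in Control to 13.7, 13.5 and 13.5 FPKM in OX-LDL (log2 fold change 1.70, SE 0.14, adjusted p 0.00171 by edgeR), a fold of 3.24. WEE1, which holds back entry into mitosis, rose by a log2 fold change of 0.50 (adjusted p 0.0242) and NAMPT, the enzyme of NAD salvage, by 0.47 (adjusted p 0.0284). KLF10 fell by 0.57 on the log2 scale (adjusted p 0.0454). With 1 library left out, WEE1 kept its call only without Control replicate 1 or OX-LDL replicate 2 (adjusted p of up to 0.0802 otherwise). In the same fits NAMPT kept it only without Control replicate 3 (up to 0.0882) and KLF10 only without Control replicate 1 or OX-LDL replicate 2 (up to 0.145).

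**Figure D5:**
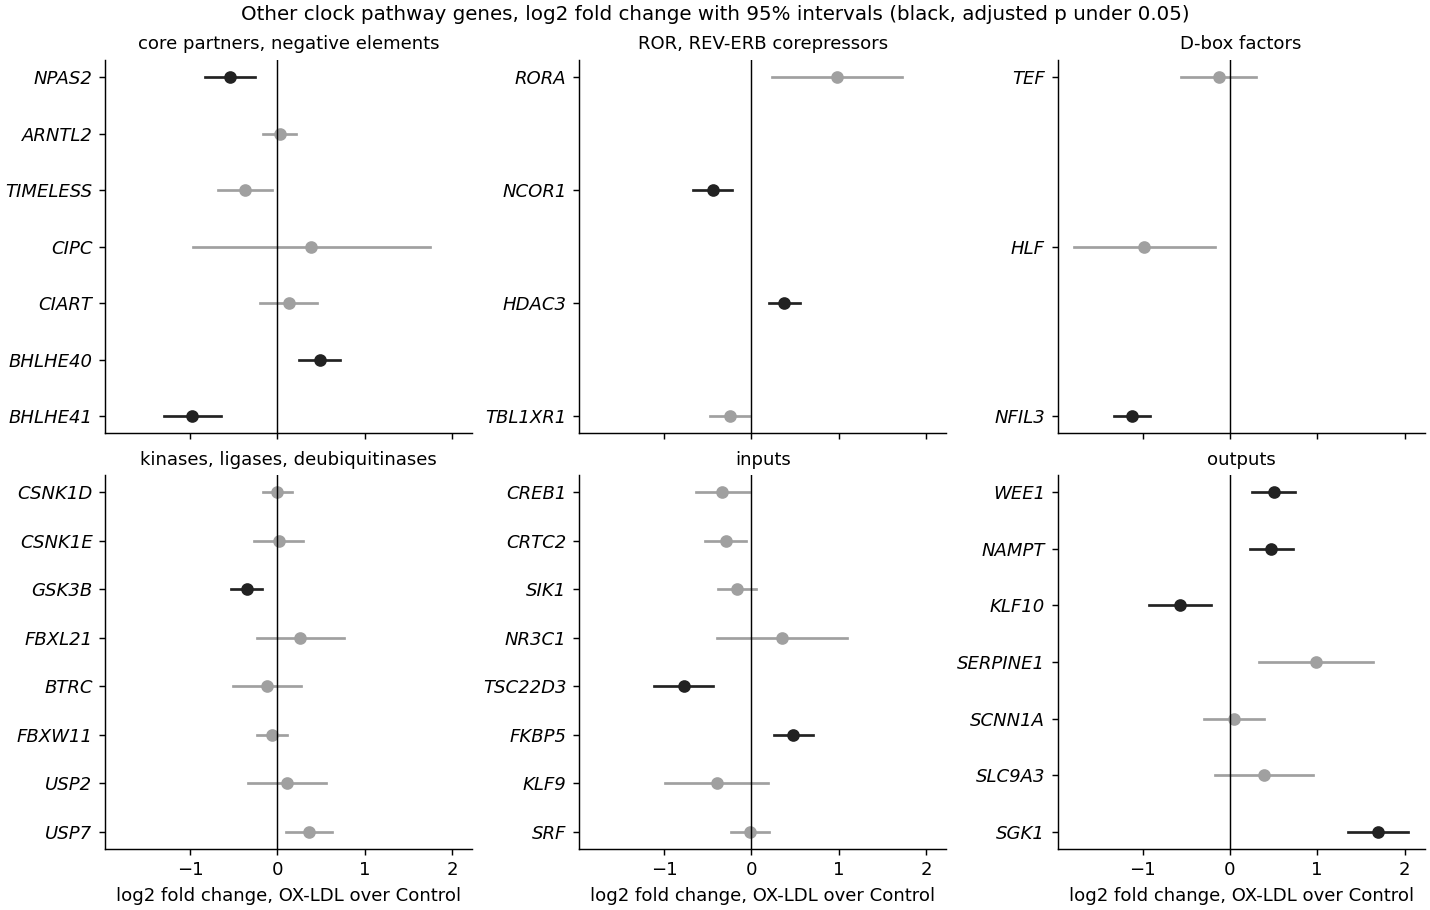
Log2 fold change of OX-LDL over Control with 95% intervals for genes of 6 further clock lists, all those tested but 1; black marks an adjusted p under 0.05 by edgeR. NFIL3 (-1.12) and BHLHE41 (-0.98) lay farthest below 0 among the called genes, and SGK1 (1.70) farthest above.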

How the data were processed

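Poly(A) RNA of 6 HK-2 libraries (3 Control, 3 OX-LDL) was sequenced by the authors. The submitters' processing notes name cutadapt 1.9, HISAT2 2.0.4, StringTie 1.3.4d, edgeR, DESeq2 and build GRCh38, without their roles; the library kit marked strand, but whether counting used it is not given in the sources used here. The deposited table holds FPKM values and estimated counts per gene, both made by the authors; whole-number counts were used as deposited. Counts were in excess at 4, 8 and 12 (3.26, 2.95 and 2.13 times their neighbours), so about 4 counts stand for 1 read pair, and counts up to 12 (about 3 pairs) were taken as not detected. FPKM, which corrects for length, was used for levels, and genes at 0 counts are listed at 0.0001 FPKM.

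Groups came from the labels, which do not say whether libraries came from separate cultures, so p-values measure only the spread between these libraries. No 2 libraries of a group agreed within sampling noise. Genes that averaged 0.1 FPKM or more were tested with edgeR 4.0.16 (quasi-likelihood, TMM factors, R 4.3.3), adjusted by Benjamini-Hochberg over all 19510, and SE is the log2 fold change over the root of the F value. Shares and ratios were compared by exact two-sided permutation tests. Alternatives were DESeq2 1.42.0, limma 3.58.1 on log2(FPKM + 0.1) and log2(FPKM + 1), other normalizations and minimum levels, counts divided by 4, a replicate block and each library left out.

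Members and lists were chosen with earlier results of these data known. Named were all members and, per further list, genes with an adjusted p under 0.05, at most 4 by smallest p. RORA, RORB, TEF, HLF, NR3C1, CSNK1D, CSNK1E, ARNTL2, TIMELESS, CIPC and CIART were named after their values were seen. Some genes of the further lists enter the counts but are not reported here by name.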

Additional observations from a re-analysis of the deposited data

How the results depend on the processing

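ARNTL and CRY1 kept their direction and their call in all 15 alternative fits, with log2 fold changes from -1.05 to -0.79 and from -0.54 to -0.45 and a highest adjusted p of 0.0217 and 0.0483. Of the other members DBP was called in 1 fit, without OX-LDL replicate 2, and the rest in none, with lowest adjusted p values between 0.0528 (CRY2) and 0.496 (PER3). Members called stayed between 2 and 3 over the fits that left out 1 library. The number of members whose groups did not overlap was 6 of 10 in FPKM (37.2% of all genes) and 3 of 10 in TMM-scaled CPM (36.9% of all genes). With 1 library left out, which leaves a group of 2 and fewer degrees of freedom, the further clock genes called ranged from 3 to 14 and all genes called from 1161 to 2943, against 14 and 2991 with every library. KLF10 also lost its call with no minimum level (adjusted p 0.0587). No result reversed among called genes.

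Libraries with the same replicate number did not deviate together (correlations over genes of -0.065, -0.014 and 0.022 for replicates 1, 2 and 3), and not every library correlated best with its own number. With the number as a replicate block 8 further clock genes and 1636 of all genes were called, and ARNTL and CRY1 kept their calls (adjusted p 0.0179 and 0.0483).

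Exact permutation of 3 against 3 libraries cannot go below p = 0.1. Intervals and detection limits cover the spread between libraries or counting only, and PER1, PER2, NR1D1, CRY2 and DBP rested on only 40.5 to 283 read pairs per library, with intervals that reach a log2 fold change of -1.30 for DBP and 1.67 for CRY2.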
